A study of Arabidopsis thaliana with 31 samples.

Results

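Helitrons of Arabidopsis (*Arabidopsis thaliana*) whose annotation name begins with HELITRON held 1339 of the 23400 CHH DMRs listed 24h upon UV-C exposure in 5 genotypes. A DMR, differentially methylated region, is a stretch whose DNA methylation level differed between 24h and time point 0 of the same genotype, and CHH is a cytosine not followed by G in either of the next positions (H is A, C or T). Members were the CHH DMRs whose midpoint lay in a transposable element (TE) row named HELITRON, HELITRONY or one of their numbered and lettered forms, so that the choice among the listed DMRs went by the name of the element, while the lists themselves were made by the authors on the change in methylation. The annotation held 4286 such elements among 31189 TE rows, with a median length of 324 bp and a range from 20 to 18766 bp. The names were used as they stood, since a name says which repeat consensus an element resembles and not whether it can still move.

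The genotypes were *uvr3 phrI* (both photolyases missing, which impairs light-driven Direct Repair of UV lesions), *ddb2* (allele *ddb2-3*, without the DDB2 protein that recognises lesions for Global Genome Repair), *dcl4* (allele *dcl4-2*, without the Dicer-like enzyme that makes 21-nt small RNAs), *ago1* (allele *ago1-27*, a hypomorphic allele of the Argonaute that binds them) and WT (Col 0, the background of the mutants). All plants, WT included, received UV-C at 3000 J/m2, and leaves were harvested at 24h and at time point 0. The labels give an age of 18 days, and the methods describe a somewhat longer growth. Both place time point 0 right after the irradiation, while the results of the study describe it as before irradiation. Whole-genome bisulfite sequencing (WGBS) was made with 1 library per genotype and time point from leaves of 2 pooled biological replicates, so no difference here has a replicate check and no test between genotypes or time points was made. Intervals are exact (Clopper-Pearson) 95% intervals, which cover counting error only. They treat DMRs as independent although several can lie in 1 element, so they do not test any difference.

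Helitrons are DNA transposons thought to move by a rolling-circle mechanism. They insert between an A and a T without duplicating the target, begin with TC and end with CTRR (R is A or G) behind a short hairpin, and only autonomous copies encode the replication and helicase protein. In plants CHH methylation is kept by CMT2, mainly in the inner part of long heterochromatic TEs, and by DRM2, which is guided by 24-nt siRNAs made by Pol IV, RDR2 and DCL3 and loaded on AGO4 (RNA-directed DNA methylation). Short TEs and the edges of long ones are the usual targets of DRM2. Non-autonomous helitrons of Arabidopsis carry other names as well, the ATREP names, which were kept apart here and serve for comparison.

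The stretches with the largest gain, the largest loss and the largest pair of opposite changes at 1 set of coordinates are shown to give the sequence that was methylated, and all came from the HELITRONY3 subfamily. They are the plus strand of the TAIR10.1 assembly, and capitals mark each CHH cytosine and each G that pairs with a CHH cytosine of the minus strand. The first is the region chr4:5612750-5612950 of AT4TE23520, where CHH methylation was 69.5% at 24h, against 21.3% at time point 0 of *dcl4* plants. The second is chr4:4906000-4906200 of AT4TE20425, with 5.60% at 24h, against 79.6% at time point 0 of WT plants, the library with the fewest mapped reads. The last is the first 300 bases, chr3:9321900-9322199, of a DMR of 400 bp in AT3TE38920 that lost methylation in *uvr3 phrI* and gained it in *ddb2* plants.
AT4TE23520: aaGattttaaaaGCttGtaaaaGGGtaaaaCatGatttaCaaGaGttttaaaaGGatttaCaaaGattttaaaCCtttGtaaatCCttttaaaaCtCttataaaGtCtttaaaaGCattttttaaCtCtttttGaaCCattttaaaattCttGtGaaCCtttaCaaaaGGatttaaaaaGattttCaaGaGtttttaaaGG
AT4TE20425: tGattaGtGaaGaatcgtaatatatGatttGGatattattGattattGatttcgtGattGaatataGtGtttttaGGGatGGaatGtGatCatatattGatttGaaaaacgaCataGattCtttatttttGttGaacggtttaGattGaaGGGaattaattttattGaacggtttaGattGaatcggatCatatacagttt
AT3TE38920: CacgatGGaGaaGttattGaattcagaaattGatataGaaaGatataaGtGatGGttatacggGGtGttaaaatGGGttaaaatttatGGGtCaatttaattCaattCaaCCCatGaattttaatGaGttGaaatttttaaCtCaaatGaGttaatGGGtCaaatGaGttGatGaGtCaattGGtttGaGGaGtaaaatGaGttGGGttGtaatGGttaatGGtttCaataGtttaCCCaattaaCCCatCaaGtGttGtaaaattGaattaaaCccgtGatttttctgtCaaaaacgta
The 201 bases of AT4TE23520 had 21 CHH cytosines on the plus and 25 on the minus strand and a GC content of 22.9%. The 201 bases of AT4TE20425 had 4 on the plus and 33 on the minus strand (GC 26.9%), so that nearly all its CHH sites lay on 1 strand. The 300 bases of AT3TE38920 had 21 and 57 (GC 30.7%).

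Some facts of the libraries touch all results. The WT library of time point 0 had by far the fewest mapped reads, and that of *ddb2* at time point 0 the next fewest. The numbers of DMRs thus come from libraries of unequal depth. Read numbers of single regions are not listed, which leaves the depth behind a level unknown. Among CHH DMRs with the same coordinates in *ddb2* and *ago1*, 78 of 96 had identical levels at 24h (within 1e-06 points) and none had identical levels at time point 0. Among the helitron DMRs this held for 5 of 6, and for no other pair of genotypes. Results for *ddb2* and *ago1* at 24h are therefore not independent of each other wherever these regions enter. The lists hold DMRs of at least 10 points of percent methylation, so the smallest changes near that value were set by the authors' threshold.

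Direction differed between genotypes. CHH DMRs in helitrons were mostly gains (hyper-DMRs) in *ddb2* and *dcl4*, mostly losses (hypo-DMRs) in *uvr3 phrI*, and mixed in *ago1* and WT plants. In *uvr3 phrI* there were 19 hyper- and 127 hypo-DMRs, a hyper share of 13.0% (8.02 to 19.6%). In *ddb2* there were 586 and 11 (98.2%, 96.7 to 99.1%), the largest number of the 5 genotypes. In *dcl4* there were 275 and 34 (89.0%, 85.0 to 92.3%). The intervals of these mutants did not overlap with that of WT plants, which describes the counts and does not test the genotypes. In *ago1* there were 89 and 112 (44.3%, 37.3 to 51.4%), and in WT 50 and 36 (58.1%, 47.0 to 68.7%), with overlapping intervals. Among changes of at least 20 points the WT share was 45.8%, so the majority of gains in WT depended on the smaller changes. No test of these differences was possible, and without *ddb2* there remained 742 DMRs of all genotypes.

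Over all CHH DMRs the hyper shares were 15.4% in *uvr3 phrI*, 96.7% in *ddb2*, 95% in *dcl4*, 52.0% in *ago1* and 55.3% in WT plants. The shares in helitrons of *dcl4* and of *ago1* were below these values, which lay outside their intervals, and in *ago1* losses were the majority in helitrons but not over all CHH DMRs. In the other genotypes the value over all CHH DMRs lay within the interval. ATREP-named elements had 88.1% in *dcl4*, close to the HELITRON share, and 18.3% in *uvr3 phrI*, 96.6% in *ddb2*, 40% in *ago1* and 63.8% in WT plants. Helitrons contributed 5.21% of all CHH DMRs in *uvr3 phrI*, 6.63% in *ddb2*, 4.70% in *dcl4*, 6.58% in *ago1* and 4.37% in WT plants. These shares span a narrow range although the numbers of DMRs differ several fold between genotypes.

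By sequence covered, hyper-DMRs took up 8.19% of the helitron bases in *ddb2*, 3.31% in *dcl4*, 0.893% in *ago1*, 0.212% in *uvr3 phrI* and 0.470% in WT plants. Hypo-DMRs covered 1.34% in *uvr3 phrI*, 1.11% in *ago1*, 0.315% in *dcl4*, 0.105% in *ddb2* and 0.371% in WT plants. In any genotype and direction 11.6% of the helitron bases lay in a CHH DMR, against 14.2% of the bases of all TEs. The DMRs of *ddb2* were also longer. Its hyper-DMRs in helitrons averaged 341 bp, against 233 bp for those of WT plants. The longest, in AT1TE13310 of HELITRONY3, spanned 1300 bp and had 45.8% methylation at 24h, against 28.1% at time point 0.

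Levels at both time points differed between gains and losses and between genotypes. Regions that gained methylation started low in *uvr3 phrI*, *ddb2* and WT plants and higher in *dcl4*. The median level of hyper-DMRs was 28.3% at 24h (quartiles 24.4 and 41.5%), against 9.75% at time point 0 (7.84 and 17.4%) in *uvr3 phrI*. In *ddb2* it was 26.6% (19.7 and 35.4%), against 10.12% (5.29 and 16.8%). In *dcl4* it was 36.9% (26.9 and 49.6%), against 18.5% (9.75 and 30.2%). Both medians were the highest among the hyper-DMRs of the 5 genotypes. In *ago1* the median was 30.7% at 24h (20.95 and 43.0%), against 13.8% at time point 0 (6.57 and 23.1%). In WT plants it was 28.0% (19.9 and 41.5%), against 10.12% (2.66 and 15.1%), so the quartiles of all 5 genotypes overlapped at both times. At time point 0 the level was 0 in 3 of the 50 WT hyper-DMRs.

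Hypo-DMRs fell into those that lost part of a substantial level and those that ended near 0. In *uvr3 phrI* the median was 18.1% at 24h (quartiles 11.1 and 27.6%), against 37.4% at time point 0 (28.2 and 46.6%). In *ago1* it was 12.3% (5.58 and 21.7%), against 33.5% (24.3 and 42.7%), and in WT 15.3% (6.28 and 29.7%), against 42.8% (33.7 and 52.6%). In these genotypes most regions kept some methylation. In *ddb2* the median at 24h was 1.29%, against 16.9% at time point 0, and 8 of the 11 regions were under 5% at 24h. In *dcl4* it was 2.38%, against 19.4%, and 23 of 34 regions were under 5%. The few losses of *ddb2* and *dcl4* thus came from regions with less methylation at time point 0 than the losses of the other genotypes.

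The median size of change was smaller in every mutant than in WT plants. Among hypo-DMRs *uvr3 phrI* had a median change of -17.1 points, *ddb2* of -15.0, *dcl4* of -13.9 and *ago1* of -18.0, against -23.6 in WT plants, where 26 of 36 regions (72.2%) changed by 20 points or more. Among hyper-DMRs *uvr3 phrI* had 16.7 points, *ddb2* 14.9, *dcl4* 16.4 and *ago1* 13.9, against 19.4 in WT plants. The part of the low depth of the WT library of time point 0 in these sizes was not tested. Compared with all CHH DMRs, hyper-DMRs in helitrons had a higher median at 24h in each of the 5 genotypes. In WT plants the medians at 24h were 28.0% in helitrons and 20.8% over all CHH DMRs, and in *dcl4* 36.9% and 28.7%. In *ddb2* they were 26.6% and 25.6%, a small difference. Hyper-DMRs in ATREP-named elements also had a higher median at 24h than all CHH DMRs in each genotype, so this was not particular to helitrons. The ATREP median was above that of helitrons in *ago1* (33.3%), *dcl4* (38.2%) and *ddb2* (29.3%). It was below it in WT plants (24.8%) and in *uvr3 phrI* (24.5%).

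**Figure D1:**
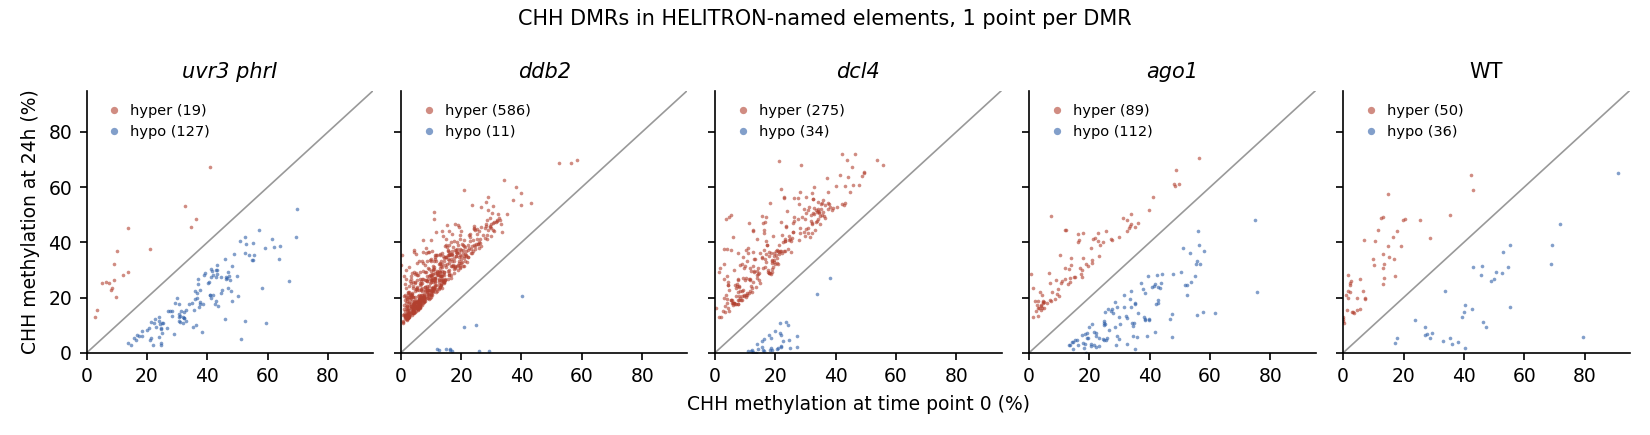
CHH methylation level (%) of each helitron DMR at 24h (vertical axis) against time point 0 (horizontal axis), 1 point per DMR and 1 panel per genotype, with hyper-DMRs in red, hypo-DMRs in blue and a line of equal levels. Points of *ddb2* and *dcl4* lie almost all above the line (586 of 597 and 275 of 309), and those of *uvr3 phrI* mostly below it (127 of 146).

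The largest gain of each genotype brought regions with little or moderate methylation to a level between 45.3 and 69.5%. AT4TE23520, a HELITRONY3 element of 2432 bp on chromosome 4, gained 48.2 points in *dcl4*, the largest gain of all members. AT2TE65130, a HELITRONY3 element of 1217 bp on chromosome 2, had 57.6% at 24h, against 15% at time point 0 in WT plants. AT3TE52655, a HELITRONY1E element of 700 bp, had 49.5%, against 7.25% in *ago1*. AT1TE51465, a HELITRONY3 element of 2092 bp, had 51.1%, against 10.9% in *ddb2*. AT1TE86390, a HELITRON2 element of 380 bp, had 45.3%, against 13.9% in *uvr3 phrI*. This DMR lay 283 bp from AT1G70040, the nearest protein-coding gene, while those of *ago1* and *ddb2* lay in the pericentromere 13079 and 14947 bp from one.

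The largest losses spanned a wider range. AT4TE20425, a HELITRONY3 element of 1450 bp, lost 74.0 points in WT plants and was 17161 bp from the nearest protein-coding gene. AT3TE50455, a HELITRONY3 element of 2383 bp, held the largest loss of *ago1* (chr3:12136450-12136650, 21.9% at 24h, against 75.6% at time point 0) and, nearby, that of *ddb2* (chr3:12136000-12136200, 0.795%, against 29.3%). A further region of this element, chr3:12136550-12137300, gained methylation in *ddb2*, with 29.2% at 24h, against 8.31% at time point 0. Gains and losses thus stood side by side within 1 element and 1 genotype. AT2TE17040 of HELITRONY1B had 10.7%, against 59.4% in *uvr3 phrI*, and AT5TE59615 of HELITRONY1B had 1.96%, against 27.4% in *dcl4*.

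Most helitrons had no CHH DMR. A DMR in any genotype was found in 636 of the 4286 elements (14.8%, 13.8 to 15.9%), against 23% of all TE rows and 20.2% of ATREP-named elements. Without *ago1* the share was 13.7% and without *ddb2* 9.89%. Gains were found in 555 elements (12.9%, background 20.5%) and losses in 252 (5.88%, background 8.98%). In either direction *uvr3 phrI* had a DMR in 134 elements (3.13%, background 5.43%), *ddb2* in 455 (10.6%, background 15.5%), *dcl4* in 249 (5.81%, background 11%), *ago1* in 179 (4.18%, background 5.97%) and WT in 78 (1.82%, background 3.76%). Every genotype thus had a DMR in a smaller share of helitrons than of TE rows in general. In *ddb2* 448 elements (10.5%) had a hyper-DMR, against a background of 15.2% of all TE rows, and 11 (0.257%) a hypo-DMR, against 0.516%. In *dcl4* 224 elements (5.23%, background 10.4%) had a hyper- and 34 (0.793%, background 0.798%) a hypo-DMR. In *uvr3 phrI* these were 19 (0.443%, background 0.936%) and 119 (2.78%, background 4.70%). In *ago1* they were 84 (1.96%, background 3.19%) and 107 (2.50%, background 3.18%), and in WT 47 (1.1%, background 2.29%) and 34 (0.793%, background 1.72%). The hypo-DMRs of *dcl4* were the only kind whose share was at the background.

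The share went along with element length. Elements with a DMR had a median length of 875 bp, and those without 253 bp. A DMR in any genotype was found in 4.04% of the helitrons under 200 bp, 11.8% of those with 200 to 499 bp, 16.1% with 500 to 999 bp, 43.5% with 1000 to 1999 bp and 66.5% with 2000 bp or more. In the same classes the TE rows not named HELITRON had 6.57, 19.3, 30.9, 47.8 and 72.3%. The difference was widest between 200 and 999 bp and small in longer elements. Among elements of 2000 bp or more a hyper-DMR of *ddb2* was in 52.2% of helitrons and 45.8% of other TEs, and a hypo-DMR of *ago1* in 23% and 14.2%. For hyper-DMRs of *dcl4* it was the other way round, with 31.7% and 48.0%. ATREP-named elements of that length, which are part of the other TEs, had 80.3, 25.4 and 36.9% in the same order. A DMR in any genotype was in 86.6% of them. The higher shares of *ddb2* and *ago1* were thus not particular to helitrons. Since a long element offers more room for a DMR, the number per length is given too. It was 531 DMRs per Mb in helitrons (294 without *ddb2*), 676 in ATREP-named elements and 648 in all TEs. From the shortest to the longest class of helitrons it was 512, 518, 359, 833 and 486 per Mb. The number per Mb thus did not rise steadily with length, unlike the share of elements with a DMR.

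**Figure D2:**
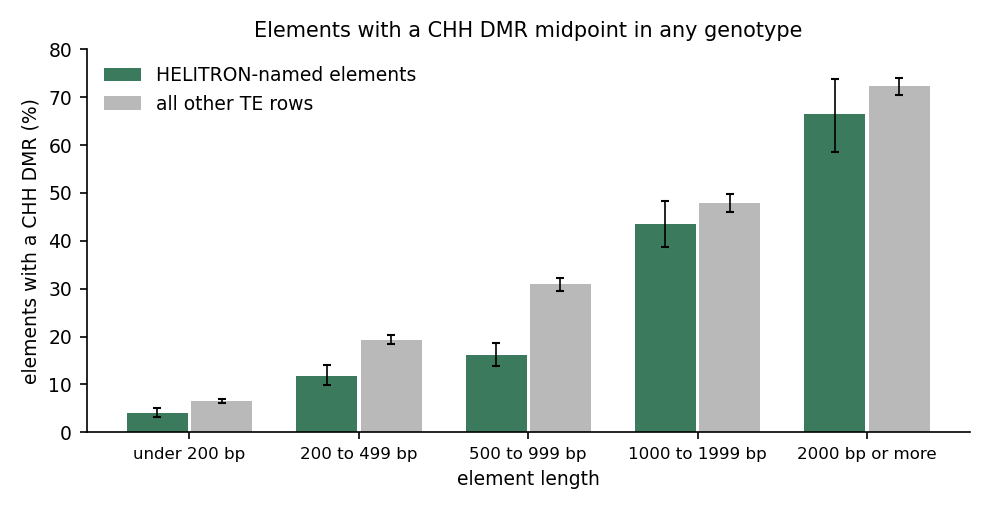
Percent of elements with a CHH DMR in any genotype (vertical axis) in 5 classes of element length, for HELITRON-named elements (green) and all other TE rows (grey), with exact 95% intervals as bars. The share was 4.04% of helitrons under 200 bp and 66.5% of those with 2000 bp or more, against 6.57% and 72.3% of the other TE rows. Per Mb, helitrons of these classes had 512 and 486 DMRs.

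HELITRONY3 held more than its share of the DMRs. It comprised 1399 elements and 30.9% of the helitron bases but 750 DMRs (56.0%), or 960.4 per Mb (544 without *ddb2* and 826 without *ago1*), and 19.4% of its elements had a DMR. HELITRONY1D followed with 143 DMRs (472 per Mb), HELITRONY2 with 79 (490 per Mb), HELITRONY1E with 64 (310.5 per Mb) and HELITRONY1A with 58 (477 per Mb). HELITRONY1B had 54 (272 per Mb), HELITRON2 51 (280.1 per Mb), HELITRON4 42 (190.1 per Mb), HELITRONY1C 33 (563 per Mb) and HELITRON1 24 (164 per Mb). HELITRONY3A, with 49 elements and 18 DMRs, was the densest (1157 per Mb), and the numbered subfamilies were among the least dense. The 5 of them together had 207 DMRs per Mb, and the 8 HELITRONY subfamilies 649.6.

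Within classes of length the gap between HELITRONY3 and the other helitrons opened with length. Below 200 bp a DMR was in 3.72% of HELITRONY3 and 4.18% of the other helitrons. Between 1000 and 1999 bp it was in 53.8% (105 of 195) and 34.2% (75 of 219), and from 2000 bp on in 91.7% (44 of 48) and 55.8% (63 of 113). Per Mb, HELITRONY3 had 1323 DMRs and the others 393 in the 1000 to 1999 bp class, and 1348 and 288 in the longest class. Other features of these elements that could go along with the subfamily, such as their age or copy number, were not analysed here.

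Direction varied less than number between subfamilies. The hyper share over all genotypes was between 66.7% in HELITRON4 and 87.5% in HELITRON1, and 76.3% in HELITRONY3. HELITRON1 had 21 hyper-DMRs, 10 in *ddb2* and 11 in *dcl4*, and no DMR in *ago1* or WT plants. Levels differed more. In *ddb2* the median of hyper-DMRs in HELITRONY3 (n = 323) was 30.4% at 24h, against 12.0% at time point 0, while HELITRONY2 (n = 31) had 18.6%, against 5.26%. In *dcl4* HELITRONY3 (n = 160) had 44.6%, against 23.7%, HELITRONY1D (n = 25) 36.8%, against 17.2%, and HELITRONY2 (n = 16) 22.3%, against 7.58%. The regions of HELITRONY2 were thus less methylated at both time points in both mutants. The element with most DMRs was AT1TE34015 in HELITRONY3 (13) and AT1TE87630 in HELITRONY1D (8), and in HELITRONY2 AT2TE10385 (9906 bp) and AT2TE16270 (6493 bp) had 9 each, in 3 genotypes.

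**Figure D3:**
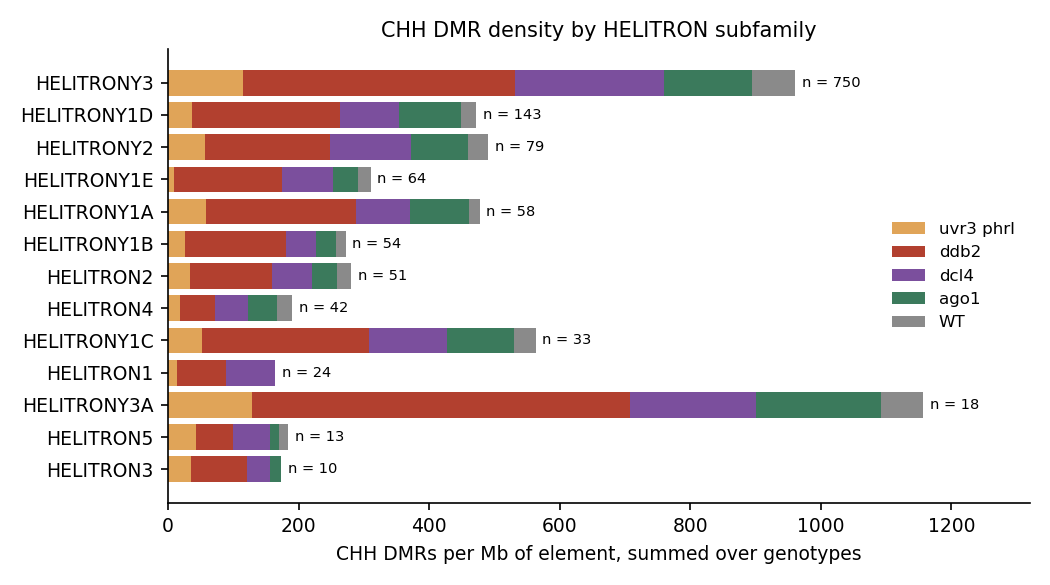
CHH DMRs per Mb of element for each HELITRON subfamily, with the genotypes stacked in colours and the number of DMRs (n) beside each bar. HELITRONY3A (1157 per Mb, n = 18) and HELITRONY3 (960.4 per Mb, n = 750) had the longest bars, and HELITRON1 (164 per Mb) the shortest.

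Position was described along the elements, the genes and the chromosomes. Of the 1339 DMRs, 830 (62.0%) lay wholly inside their element. Among the 837 in elements of 1000 bp or more, 222 had their midpoint within 200 bp of an element end. The share of the bases of these elements that lay this near an end was not computed. The midpoint of 60 DMRs also lay in an element of another name and that of 5 in a second HELITRON element, so these cannot be ascribed to 1 element alone. A protein-coding gene held 46 DMRs (3.44%) and lay within 2000 bp of 738 (55.1%). The other 555 were farther away, and the median distance was 1680 bp. Such distances were not computed for all helitrons or all CHH DMRs, so no background stands beside these shares.

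The pericentromere (the gene-poor run around each centromere) held 34.2% of the helitron DMRs of *uvr3 phrI*, 36.7% of *ddb2*, 43.7% of *dcl4*, 43.3% of *ago1* and 45.3% of WT plants. It contains 43.4% of the helitron bases. Over all CHH DMRs the shares were 45.6% in *uvr3 phrI*, 37.0% in *ddb2*, 49.4% in *dcl4*, 45.7% in *ago1* and 49.3% in WT plants. Helitrons of the pericentromere had 484 DMRs per Mb and those of the arms 566, although a DMR was in 19.9% of the pericentromeric and 12.6% of the arm elements. Hyper-DMRs in the arms had higher median levels at both time points in all 5 genotypes. In *dcl4* the median of hyper-DMRs in the pericentromere was 29.8% at 24h, against 11.3% at time point 0, and in the arms 43.3%, against 23.5%. In *ddb2* it was 23.1%, against 7.36% in the pericentromere, and 28.8%, against 11.7% in the arms. The same order was seen in WT plants, with 22.2%, against 4.60%, and 34.6%, against 13.3%. In *ago1* the median was 25.8%, against 9.16% in the pericentromere, and 33.6%, against 17.4% in the arms. In *uvr3 phrI* it was 24.2%, against 7.35% in the pericentromere (4 hyper-DMRs), and 29.4%, against 12.0% in the arms. By chromosome the number per Mb of helitron was 571 on chromosome 1, 501 on 2, 459 on 3, 603 on 4 and 536 on 5.

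Most elements with a DMR had it in 1 genotype, and the others in several. Of the 636 elements, 363 had DMRs in 1 genotype, 147 in 2, 83 in 3, 26 in 4 and 17 in all 5. Gains were the only change in 384 elements, losses in 81, and both occurred in 171, with 32 cases in which a single genotype had both in 1 element. No such counts for other TE rows stand beside these, so recurrence cannot be called a trait of helitrons. Median length was 625 bp for elements with DMRs in 1 genotype, 1160 bp for 2, 1269 bp for 3 and 1458 bp for 5, against 253 bp for elements without a DMR. The share of HELITRONY3 was 88.2% among the 17 elements with all 5 genotypes, against 30.9% among elements with none.

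Overlaps between genotypes are given as a share of each list, since the lists differ in size. Of the 119 elements with a hypo-DMR in *uvr3 phrI*, 82 (68.9%) also had a hyper-DMR in *ddb2*, which is 18.3% of the 448 elements of that list. Elements with hyper-DMRs in both *ddb2* and *dcl4* were 150 (33.5% and 67.0% of each list). The hyper-DMRs of *ddb2* and *ago1* met in 67 elements (15% and 79.8%), some through regions with identical 24h levels, and those of *ddb2* and WT in 31 (6.92% and 66.0%). The larger list of *ddb2* thus included most elements of each of these smaller lists. Which overlap its size alone would give was not tested. Elements with a hypo-DMR of *uvr3 phrI* were long, with a median of 1267 bp. A hyper-DMR of *ddb2* was in 33.8% of all helitrons of 1000 to 1999 bp and in 52.2% of those of 2000 bp or more. Such overlaps were not computed over all TE rows, so no link between these losses and gains can be read from them.

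The elements with DMRs in all genotypes and the most DMRs show both directions at short distance. AT1TE34015 (HELITRONY3, chr1:10524718-10529695) had 11 hyper- and 2 hypo-DMRs. In *ddb2* its 5 gains ranged from 12.0 to 28.3 points, in *dcl4* there were 3 and in *ago1*, *uvr3 phrI* and WT plants 1 each. Its largest change was a loss in *ago1*, with 13.6% at 24h, against 55.8% at time point 0. AT5TE36970 (HELITRONY3, 9240 bp) had 8 hyper- and 4 hypo-DMRs, all of them changes between 10 and 23.8 points. Most of its gains were in *ddb2* and *dcl4* and its losses in *uvr3 phrI*, *ago1* and WT plants.

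AT1TE87630 (HELITRONY1D, chr1:26779008-26781652) lost methylation in *uvr3 phrI* alone, with 35.5% at 24h, against 53.8% at time point 0. Overlapping regions had 36.5%, against 18.3% in *ddb2*, 42.2%, against 19.3% in *dcl4*, 42.0%, against 29.8% in *ago1* and 38.6%, against 19.2% in WT plants. At 24h the 5 genotypes therefore lay between 35.5 and 42.2%, and at time point 0 *uvr3 phrI* had the highest level. Given these 24h levels, a listed loss had to start above the listed gains, so this order follows from the listing. In AT2TE03875 (HELITRONY3, chr2:871079-873128) the levels in *uvr3 phrI* were 39.8%, against 55.1%, those in *ddb2* 55.2%, against 37.1%, those in *dcl4* 54.7%, against 34.0%, and those in WT 49.2%, against 13.3%. In this element too *uvr3 phrI* had the highest level at time point 0 of these regions, which the listing of a loss beside gains again required. AT4TE09825 (HELITRONY3, 8 DMRs), AT4TE18205 (HELITRONY2, 10996 bp, 8 DMRs), AT1TE36510 and AT3TE38920 (HELITRONY3, 7 DMRs each) also had DMRs in all 5 genotypes. The same holds for AT3TE69710, AT4TE21950, AT4TE85270 and AT5TE58250 of HELITRONY3, which had 7 DMRs each as well.

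**Figure D4:**
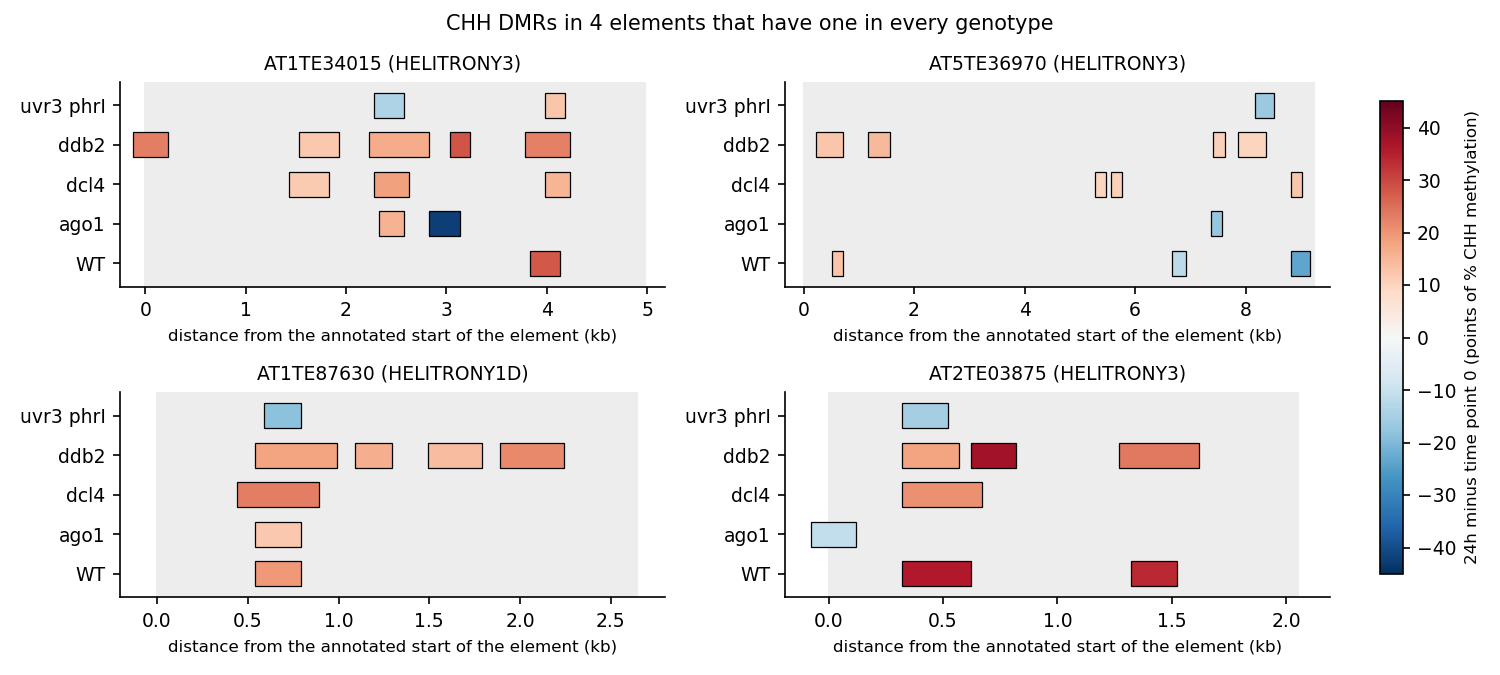
Position of the DMRs along 4 elements with DMRs in all 5 genotypes, as distance from the annotated start in kb, with 1 row per genotype, the element in grey and the change in points of CHH methylation as colour (red gain, blue loss). Gains and losses lie within the same element in each of them.

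Identical coordinates in 2 genotypes occurred in 28 pairs, 20 with the same and 8 with opposite direction. Over all CHH DMRs there were 489 such pairs, 312 with the same and 177 with opposite direction. Of these opposite pairs *uvr3 phrI* shared 39 with *ddb2*, 52 with *dcl4*, 15 with *ago1* and 6 with WT plants. Opposite pairs with *uvr3 phrI* were thus not particular to helitrons. In 6 of the 8 opposite pairs in helitrons *uvr3 phrI* was the genotype that lost methylation. In AT3TE38920 (chr3:9321900-9322300) *uvr3 phrI* had 18.7% at 24h, against 43.0% at time point 0, and *ddb2* 31.5%, against 13.2%. In AT4TE13135 (chr4:2800800-2801000) *uvr3 phrI* had 10.7%, against 32.1%, and *ago1* 31.8%, against 13.8%. In AT5TE70155 (chr5:19495800-19496150) *uvr3 phrI* had 20.9%, against 40.8%, and *dcl4* 34.8%, against 15.6%. In each of these the order of the genotypes at 24h was the reverse of that at time point 0. AT3TE69710 (chr3:17202750-17203050) also lost methylation in *uvr3 phrI*, with 21.1%, against 41.0%, while *ago1* had 46.5%, against 33.9%. In AT1TE67670 *dcl4* had 46.9%, against 32.2%, and *ago1* 28.7%, against 47.7%, and in AT2TE25830 *ddb2* had 14.9%, against 2.61%, and WT 6.72%, against 27.9%. Each of these values is 1 library.

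CHG methylation, the other non-CG context (a cytosine 2 positions before G), changed at few of these sites. There were 49 CHG DMRs in helitrons, 44 in *ddb2*, 4 in *dcl4* and 1 in WT plants, and no CG DMR. Of the helitron CHH DMRs, 44 had a CHG DMR with the same coordinates and direction, 39 of them in *ddb2* (6.53% of its 597, against 8.31% over all CHH DMRs of *ddb2*). Over all genotypes these were 3.29% of the helitron DMRs and 3.75% of all CHH DMRs, so the helitron share was close to that of CHH DMRs in general. The median change at these was 14.7 points in CHH and 25.5 in CHG, with thresholds of 10 and 20 points. The largest CHG change, named after its values were seen, was in AT2TE25255 of HELITRONY1D in *ddb2*, with 71.9% CHG methylation at 24h, against 34.8% at time point 0, and 26.5%, against 10.5% in CHH.

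Photolesions (the pyrimidine dimers left by UV-C, mapped by immunoprecipitation at time point 0) rarely coincided with these DMRs. A photolesion region of the same genotype overlapped 2 of 146 DMRs in *uvr3 phrI* (1.37%) and 1 of 597 in *ddb2* (0.168%), against 0.999% and 0.644% of all CHH DMRs. None was found among 309 in *dcl4*, 201 in *ago1* and 86 in WT plants, which allows shares of up to 1.19% in *dcl4*, 1.82% in *ago1* and 4.20% in WT plants. Over all CHH DMRs the shares were 0.760% in *dcl4*, 0.491% in *ago1* and 1.73% in WT plants, below these limits. In AT3TE51195, a HELITRON3 element of 4035 bp, a region enriched 7.84-fold over the WT input in *uvr3 phrI* met a DMR with 44.4% at 24h, against 57.0% at time point 0. A region enriched 5.15-fold in *ddb2* met a DMR with 46.8%, against 33.2%, so the same stretch changed in opposite directions in these mutants. The remaining overlap, in AT4TE05825 of HELITRONY3 in *uvr3 phrI*, was a region enriched 4.34-fold that touched a DMR with 29.4% at 24h, against 13.7% at time point 0. The photolesion regions came from reads that mapped to 1 place, which limits what can be seen in repeats.

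Small RNA abundance was higher on elements with a DMR. Values are RPM (reads scaled to the size of the library), averaged over 10 library columns whose names match no sample, and divided by element length. The median of 24- to 25-nt RNAs, the class of siRNAs that guides DRM2, was 23.2 RPM per kb in helitrons with a DMR and 0.375 in those without. For 22 to 23 nt the medians were 10.01 and 0.0954 and for 21 nt 1.18 and 0. In the 24- to 25-nt class 1 of the 636 elements with a DMR was listed at 0, against 1148 of the 3650 without. The difference was present among long elements as well, with 29.5 and 1.88 RPM per kb between 1000 and 1999 bp and 19.4 and 3.37 from 2000 bp on. It was not particular to helitrons. Over all TE rows these 24- to 25-nt medians were 49.3 and 5.12 between 1000 and 1999 bp. From 2000 bp on they were 40.7 and 9.81, so helitrons lay below TE rows in general in each of these groups. Among helitrons the number of genotypes with a DMR went along with the level. Medians were 15.5 RPM per kb for 1 genotype, 98.2 for 3 and 184 for 5. These groups also differed in length and subfamily, and the part of either was not tested.

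HELITRONY3 had the highest levels. In its elements of 1000 to 1999 bp the medians were 98.8 RPM per kb with and 0.787 without a DMR, and in the other helitrons of that length 12.6 and 2.17. The 10 elements with the most 24- to 25-nt RNA were all HELITRONY3, with between 1645 and 2036 RPM each. The alignment reported a read at every best match, so copies with the same sequence share their reads, and nearly equal values are not independent. Pooled over all its elements, HELITRONY3 had 85.6 RPM per kb, HELITRONY1D 17.8 and HELITRON2 23.3, against 104 over all TEs. By direction, the median was 75.9 RPM per kb for elements with a hypo-DMR of *uvr3 phrI*, 28.5 for a hyper-DMR of *ddb2*, 61.1 for a hyper-DMR of *dcl4*, 28.4 for a hyper-DMR of *ago1* and 60.0 for a hyper-DMR of WT plants. Elements with a hyper-DMR of *uvr3 phrI* had 20.9. For hypo-DMRs the medians were 15.3 in *ddb2*, 25.2 in *dcl4*, 20.9 in *ago1* and 51.9 in WT plants. Neither direction was the higher one in all genotypes, since losses had the higher median in *uvr3 phrI* and gains in the others.

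**Figure D5:**
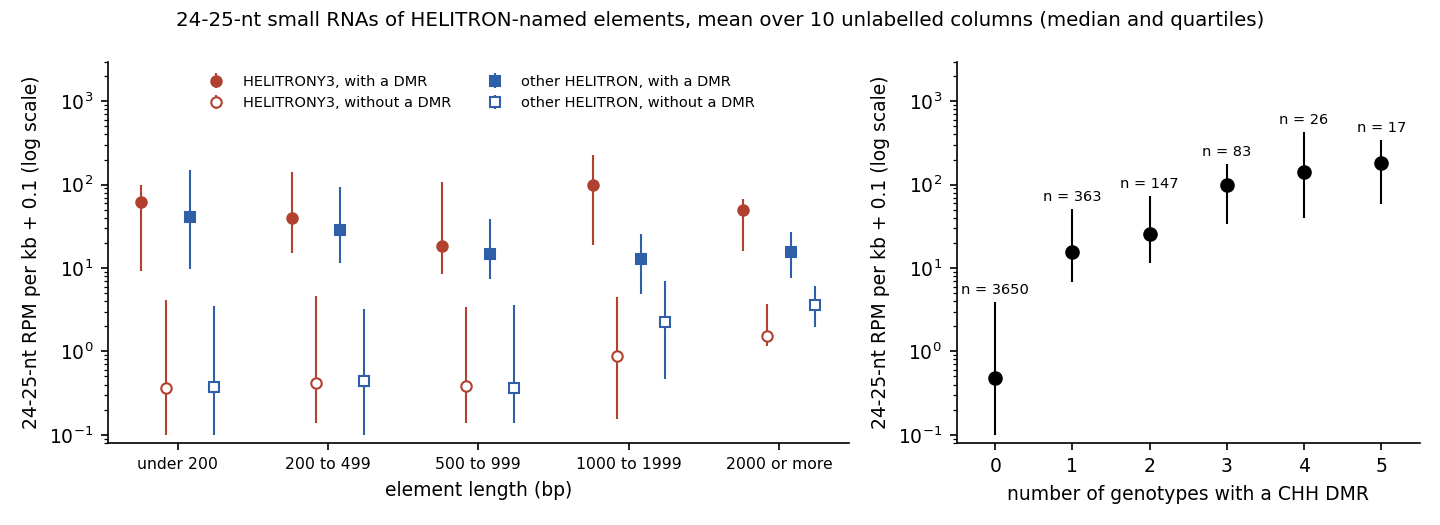
Small RNA abundance of 24 to 25 nt (RPM per kb plus 0.1 on a log axis, mean of 10 unlabelled library columns, points and bars for median and quartiles) by length class for HELITRONY3 and the other helitrons with and without a DMR, and by the number of genotypes with a DMR. Elements with DMRs in 5 genotypes had a median of 184, against 0.375 for those with none.

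The DMRs had more CHH sites per length than helitrons as a whole. They had a median of 23.1 CHH cytosines per 100 bp on both strands and a GC content of 27.9%, against 20.04 and 23.99% in the helitrons of 200 bp or more that held a DMR and 19.5 and 23.3% in all of that length. All CHH DMRs had 25.4 and 32.5%, against 21.4 and 27.4% in all TEs of 200 bp or more, so this difference was not particular to helitrons. Di-pyrimidines, the sequence in which photolesions form, took up 54.4 of 100 steps in the helitron DMRs, 52.7 in the elements and 55.0 in all CHH DMRs. The density of CHH sites was lower in DMRs of *ddb2* (21.5 per 100 bp) than in those of *uvr3 phrI* (25.2), *dcl4* (24.2), *ago1* (22.7) and WT (26.5) plants. Its DMRs were longer, and *ddb2* had the highest median number of sites per DMR, with 67, against 61 in *uvr3 phrI*, 65 in *dcl4*, 53 in *ago1* and 57.5 in WT plants.

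Complete helitron ends were rare. Both ends, TC at the start and CTNN at the end of the same strand with A or G for each N, were found in 8 of the 4286 elements (0.187%), against 54 of the 31189 TE rows (0.173%), so the share was that of TEs in general. Of the 8, 6 were among the 636 elements with a DMR and 2 among the 3650 without, and 5 were 2000 bp or longer. No match at the annotated ends says only that these letters are not at those positions.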

How the data were processed

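WGBS of 5 genotypes at 24h and time point 0 gave the deposited lists of DMRs. To make them, the authors aligned the reads with BSMAP (TAIR10), tested windows of 200 bp with 50-bp overlap by a Wilcoxon signed-rank test, fused neighbouring windows and set minimum changes of 40 (CG), 20 (CHG) and 10 points (CHH). The levels are deposited by the authors as a score between 0 and 1, which is a fraction of methylated calls, and are given here as percent. The listed change is the difference of both levels (largest deviation 1e-07 points). Photolesion regions carry a fold enrichment (ratio over the WT input) deposited by the authors, made with Bowtie 1.1.2, keeping reads that mapped once, and MACS2 2.1. Small RNA values are RPM, deposited as a score. For these the authors reported all best alignments of Bowtie 1.2.1.1 and used SAMtools 1.5 and bedtools 2.27.1. There were 6 small RNA files with 60 columns that match no sample. Of these, 30 were used only as a mean over the 10 columns of each of 3 files, and the others were not used.

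TE rows, genes and names came from the authors' annotation in these tables. A DMR belonged to the element that held its midpoint. Pericentromeres were the longest stretches of 100-kb bins in which gene coverage, smoothed over 11 bins, fell below 50% of the chromosome median. Sequences are RefSeq TAIR10.1. All 28009 genes found by name overlapped their RefSeq gene, 6035 with the same start and end, as did 541 of 631 tRNA genes. The assignment of midpoints, overlaps and intervals were tested on simulated data, and counts of CHH sites on a short fixed sequence. Python 3.11.15, numpy 2.4.6, pandas 2.3.3, scipy 1.17.1 and matplotlib 3.10.9 were used.

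Since each group is 1 library, only counts, shares with exact intervals, medians and quartiles were computed, with no test. By rule, the loci named were the DMR with most gain and with most loss per genotype, 8 of the 17 elements with DMRs in all 5 genotypes, those with most DMRs (ties cut by name), subfamilies with at least 20 DMRs, the element with most DMRs in each of the 3 largest subfamilies, the 6 largest opposite pairs and DMRs on photolesion regions. HELITRONY3A, the longest DMR and elements tied with those above were named after their values were seen. Members and lists were chosen with earlier results of these data known. Alternatives were minimum changes of 15 or 20 points, elements of 500 bp or more, a pericentromere of 3 Mb on each side, stricter overlap, means for medians, medians over columns and, added after the data were seen, leaving out a genotype.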

Additional observations from a re-analysis of the deposited data

Results flagged for a closer look

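Of the 8 pairs of DMRs with the same coordinates and opposite changes in different genotypes, the 6 with the largest changes are given here, each from 1 library per time point, and the differences were not tested. The difference in change, in points of CHH methylation, of the first minus the second genotype was -42.6 in AT3TE38920 (*uvr3 phrI* and *ddb2*), -39.4 in AT4TE13135 (*uvr3 phrI* and *ago1*) and -39.1 in AT5TE70155 (*uvr3 phrI* and *dcl4*). It was 33.6 in AT1TE67670 (*dcl4* and *ago1*), 33.5 in AT2TE25830 (*ddb2* and WT) and -32.5 in AT3TE69710 (*uvr3 phrI* and *ago1*). A loss in *uvr3 phrI* beside a gain in the other genotype was thus found in 4 of these 6. Over all CHH DMRs 177 of 489 pairs with the same coordinates had opposite changes, so such pairs were not particular to helitrons.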

How the results depend on the processing

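Of 150 values under other settings, 87 moved by less than their interval or within 1.5 times of the count, and the other 63 are given here. With a minimum change of 15 points *uvr3 phrI* had 93 DMRs, *ddb2* 291, *dcl4* 177, *ago1* 110 and all genotypes 734, and with 20 points these were 45, 110, 87 and 56, with 48 in WT and 346 in all. Without *ddb2* there were 742 in all, or 294 per Mb of helitron and 544 per Mb of HELITRONY3. The hyper share in all was 58.4% without *ddb2* and 81.7% without *ago1*. With 15 points it was 31.8% in *ago1* and 72.2% in all, and with 20 points that of *dcl4* was 95.4%, of *ago1* 23.2%, of WT 45.8% and of all 67.1%. At 15 points *uvr3 phrI* had a DMR in 2.1% of elements, *ddb2* in 5.55%, *dcl4* in 3.59%, *ago1* in 2.40%, WT in 1.38% and any genotype in 9.45%, and these were 1.03, 2.29, 1.94, 1.24, 1.05 and 5.44% at 20 points. Among elements of 500 bp or more they were 6.78, 21.5, 12.0, 9.06, 3.86 and 28.4% in the same order, and in any genotype 13.7% without *ago1* and 9.89% without *ddb2*. With 3 Mb on each side of the centromere the pericentromeric share of *uvr3 phrI* was 46.6%, of *ddb2* 52.1%, of *dcl4* 54.4%, of *ago1* 58.7% and of WT 59.3%, and with 15 points 30.6% in *ddb2*. With an overlap of 50% no DMR of *uvr3 phrI* (0) or *ddb2* (0) met a photolesion region, and with a fold of at least 5 there was 1 in *uvr3 phrI*. Mean instead of median length was 1532 bp with a DMR and 424 bp without, with *uvr3 phrI* at 1962, *ddb2* at 1549, *dcl4* at 2143, *ago1* at 2086 and WT at 2617 bp. In elements without a DMR, the small RNA medians over columns were 0 RPM per kb for 22 to 23 nt and 0 for 24 to 25 nt, and among those of 500 bp or more 0.0330 for 21 nt, 0.264 for 22 to 23 nt and 0.621 for 24 to 25 nt. The cause of these moves was not tested, apart from what fewer DMRs or elements bring by construction.

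No paired analysis was possible because each genotype and time point is 1 library. Depth per region is unknown, the WT library of time point 0 was shallow, and regions with identical 24h levels link *ddb2* and *ago1*. Counts and levels are therefore descriptions of these libraries, and reads matching several copies were handled by the authors' tools.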
